A study of Mus musculus with 4 samples.

Results

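The genes examined were the neurotrophins and the ligands and receptors of the related GDNF family, taken as the 9 listed symbols Bdnf, Ntf3, Gdnf, Artn, Ngfr, Ntrk2, Ntrk3, Gfra1 and Gfra2 among the 32285 rows of the deposited matrices. All 9 were found, each on 1 row. The study followed mesenchymal cells in heterotopic ossification, the formation of bone inside soft tissue, by single-cell RNA sequencing of tibial muscle. There were 4 groups of 1 library each: Uninjured, and after injury day 1, day 3 and day 7 (written 1, 3 and 7 dpi). Every group, Uninjured included, came from C57BL/6 mice of 6 to 8 weeks of age that carried the Nse-Bmp4 genotype, in which a rat neuron-specific enolase promoter drives a mouse Bmp4 cDNA, so no group without the transgene was analysed here. Injury was made by cardiotoxin, a snake venom peptide that destroys muscle fibres. Each library pooled 3 tibial muscles dissociated with collagenase. No group had a replicate, so a difference between time points and a difference between libraries cannot be told apart, no test was possible, and the intervals given below cover counting error only.

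Neurotrophins are secreted proteins that keep sensory, sympathetic and motor neurons alive and guide their axons. They are made by target tissues such as skin and muscle and act through the Trk receptor tyrosine kinases and through Ngfr, a receptor without kinase activity that binds every neurotrophin. GDNF family ligands bind GPI-anchored co-receptors of the Gfra group, which present them to the receptor tyrosine kinase Ret. Schwann cells, the glia of peripheral nerve, are known to raise Bdnf, Gdnf, Artn and Ngfr after nerve injury.

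Cells were assigned to classes by the number of marker genes with at least 1 UMI (unique molecular identifier, 1 counted RNA molecule). After cell filtering, 10307 Uninjured cells, 9641 cells at 1 dpi, 12604 at 3 dpi and 20301 at 7 dpi remained, with median depths of 8638, 5896, 4338 and 3049 UMIs per cell, and 30 to 95 cell barcodes were shared by pairs of libraries. Mesenchymal cells, which needed 6 of 8 stromal markers such as Pdgfra, Col1a1 and Dcn and neither Ptprc nor Cdh5, numbered 8216, 3387, 5447 and 10145, and of these 691, 423, 1044 and 3347 held exactly the minimum of 6 markers. The Schwann gate held 135 to 223 cells per library, the muscle gate 66 to 274 cells, and the mural gate (pericytes and vascular smooth muscle) 119, 17, 16 and 338 cells. Levels are in CPM, the summed UMIs of a gene divided by the summed UMIs of its cell class and multiplied by 1000000, with exact Poisson 95% intervals. CPM was not scaled for gene length, so levels were compared between libraries and classes and not between genes.

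Most UMIs of the family were counted in mesenchymal cells. Over the 4 libraries, mesenchymal cells held 5266 of 5789 Ntf3 UMIs (91.0%), 12928 of 14569 Ntrk2 UMIs (88.7%), 7127 of 8272 Gfra1 UMIs (86.2%), 328 of 385 Artn UMIs (85.2%), 4120 of 5267 Gfra2 UMIs (78.2%) and 887 of 1270 Bdnf UMIs (69.8%). The other 3 genes were spread more widely. Mesenchymal cells held 367 of 702 Ntrk3 UMIs (52.3%), 516 of 1056 Ngfr UMIs (48.9%) and 61 of 198 Gdnf UMIs (30.8%), and muscle cells held 70 Gdnf UMIs (35.4%). Mesenchymal cells were also the most numerous class, so these shares follow cell number as well as level per cell.

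**Figure D1:**
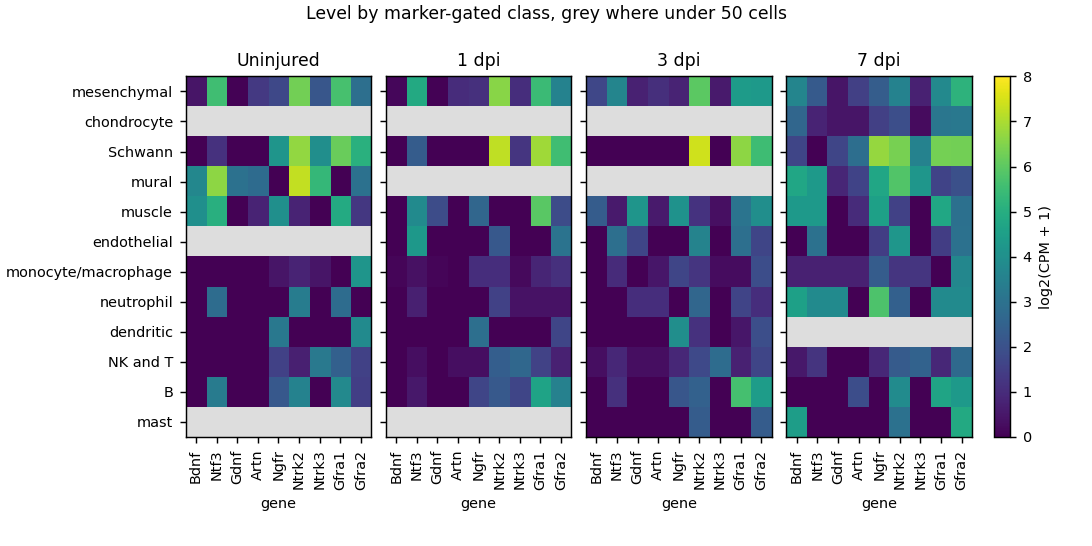
Level of the 9 genes (columns) in each marker-gated cell class (rows) in the 4 libraries (panels), as log2(CPM + 1) on a colour scale from 0 to 8. Grey rows had under 50 cells. The mesenchymal row was bright for Ntf3, Ntrk2 and Gfra1 in the Uninjured library and dimmer for them at 7 dpi, while Gfra2 was brighter at 7 dpi.

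Among the ligands in mesenchymal cells, Bdnf was higher and Ntf3 lower in the later libraries. Bdnf (ENSMUSG00000048482, chromosome 2, 109674700 to 109727007, plus strand, GRCm38) encodes brain-derived neurotrophic factor, the ligand of the receptor encoded by Ntrk2. Its level was 0.374 CPM (0.25–0.537, 29 UMIs) in the Uninjured library, 0.0941 CPM (0.0194–0.275, 3 UMIs) at 1 dpi, 2.27 CPM (1.88–2.72, 119 UMIs) at 3 dpi and 11.4 CPM (10.6–12.3, 736 UMIs) at 7 dpi. The 3 dpi and 7 dpi libraries stood above the other pair with no overlap of their intervals, and 7 dpi was 5.02-fold higher than 3 dpi (4.13–6.15). The 24.2-fold difference between 3 and 1 dpi (8.07–119) rests on 3 UMIs at 1 dpi. At 7 dpi 5.14% of mesenchymal cells had a Bdnf UMI, and 0.933% did after each cell was thinned to 1000 UMIs, which kept 8216, 3385, 5400 and 9968 mesenchymal cells of at least that depth. As background, NK and T cells had 0 Bdnf UMIs in the Uninjured and 1 dpi libraries (limits of 1.93 and 0.665 CPM for a count of 0), 0.216 CPM at 3 dpi and 0.431 CPM at 7 dpi. However, 7 dpi neutrophils held Bdnf at 22.1 CPM (5 UMIs) and 7 dpi mast cells at 20.8 CPM (3 UMIs), above mesenchymal cells. The mesenchymal gate markers summed to 10278 CPM in those neutrophils and 22616 CPM in those mast cells, and their part in these values was not tested. Gm45346 is annotated on the opposite strand of the Bdnf locus.

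Ntf3 (ENSMUSG00000049107, chromosome 6, 126101412 to 126166910, minus strand) encodes neurotrophin-3, the ligand of the receptor encoded by Ntrk3. Its level in mesenchymal cells was 45.5 CPM (44.0–47.0, 3527 UMIs) in the Uninjured library, 28.2 CPM (26.4–30.1, 899 UMIs) at 1 dpi, 11.4 CPM (10.5–12.4, 597 UMIs) at 3 dpi and 3.77 CPM (3.31–4.27, 243 UMIs) at 7 dpi. Each library was lower than the one before it without overlap of the intervals, by 1.61-fold (1.5–1.74), 2.47-fold (2.23–2.75) and 3.03-fold (2.60–3.53), and 7 dpi was 12.1-fold lower than Uninjured (10.6–13.8). The share of mesenchymal cells with an Ntf3 UMI was 26.9%, 18.8%, 9.01% and 2.05%, and after thinning 4.61%, 3.16%, 1.56% and 0.451%. NK and T cells, with median depths of 3746.5, 4526.5, 3018 and 2360 UMIs, held Ntf3 at 0, 0.222, 0.864 and 1.29 CPM. Neutrophils at 7 dpi held it at 13.3 CPM (3 UMIs), above mesenchymal cells of that library.

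Both remaining ligands were sparse in mesenchymal cells. Gdnf (ENSMUSG00000022144, chromosome 15, 7810846 to 7837575, plus strand), the glial cell line-derived neurotrophic factor that binds Gfra1, had 2, 1, 34 and 24 UMIs in the 4 libraries, which gave 0.0258, 0.0314, 0.650 (0.450–0.908) and 0.372 (0.239–0.554) CPM. The 3 dpi library was higher than 1 dpi by 20.7-fold with an interval of 3.47 to 842, since 1 UMI stood at 1 dpi. Artn (ENSMUSG00000028539, chromosome 4, 117926162 to 117929763, minus strand) encodes artemin, the ligand of Gfra3. It was at 1.53 (1.27–1.84), 1.00 (0.687–1.42), 1.13 (0.858–1.45) and 1.83 (1.52–2.19) CPM from 119, 32, 59 and 118 UMIs. The Artn intervals of the Uninjured and 7 dpi libraries overlapped, and 7 dpi was 1.62-fold higher than 3 dpi (1.18–2.26).

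**Figure D2:**
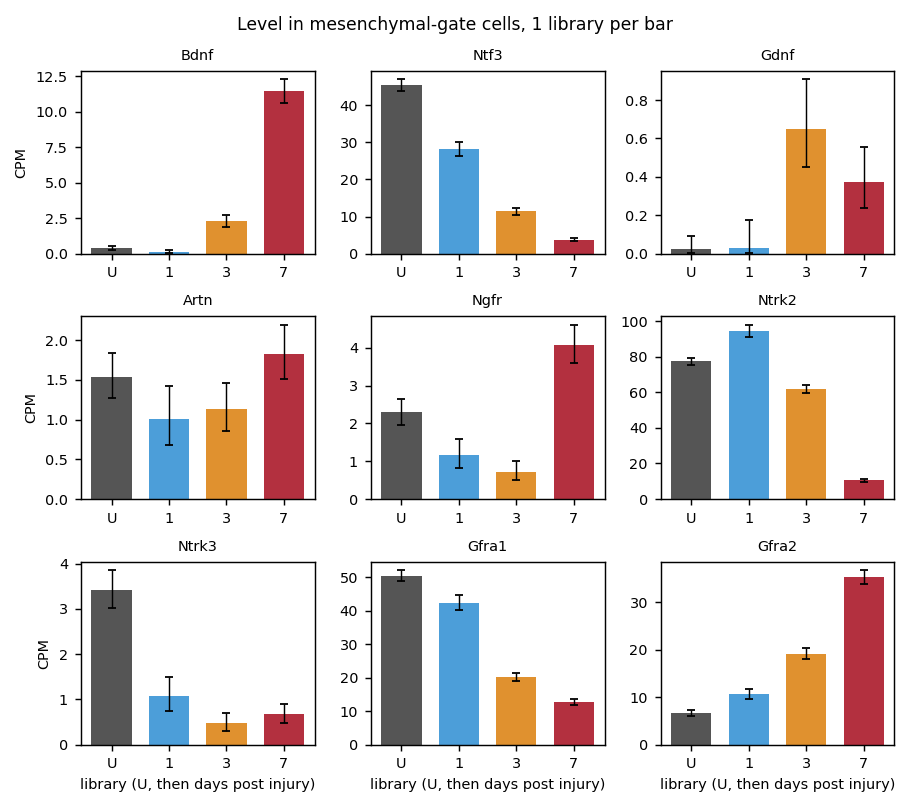
Level (CPM, linear axes from 0, a separate scale per gene) of the 9 genes in mesenchymal cells of the Uninjured (U), 1, 3 and 7 dpi libraries. Each bar is 1 library with its exact Poisson 95% interval. Bdnf and Gfra2 stood highest at 7 dpi, and Ntf3 and Gfra1 in the Uninjured library.

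Of the receptors, Ntrk2 and Gfra1 were lower in the later libraries and Gfra2 was higher. Ntrk2 (ENSMUSG00000055254, chromosome 13, 58806569 to 59133970, plus strand) encodes TrkB, which is made as a full-length kinase and as truncated forms without the kinase domain, and the counts per gene do not separate them. Mesenchymal cells held Ntrk2 at 77.4 CPM (75.5–79.4, 6006 UMIs) in the Uninjured library, 94.5 CPM (91.1–97.9, 3012 UMIs) at 1 dpi, 61.7 CPM (59.6–63.8, 3228 UMIs) at 3 dpi and 10.6 CPM (9.80–11.4, 682 UMIs) at 7 dpi. The 7 dpi library stood apart from the other 3, being 5.83-fold lower than 3 dpi (5.37–6.34), whereas 1 dpi was 1.22-fold higher than Uninjured (1.17–1.28). Cells with an Ntrk2 UMI made up 41.1%, 43.0%, 32.7% and 5.11% of mesenchymal cells, and 6.48%, 10.5%, 7.11% and 1.23% after thinning. In 1 dpi neutrophils, a class that should lack it, 1.04% of 481 cells with a median of 4531 UMIs had an Ntrk2 UMI and none did after thinning. At 7 dpi neutrophils held Ntrk2 at 4.43 CPM (1 UMI) and NK and T cells at 3.88 CPM (9 UMIs). However, B cells held it at 13.5 CPM (5 UMIs) and endothelial cells at 17.4 CPM (10 UMIs), above mesenchymal cells of that library. Gm47423 and 4930415C11Rik are annotated on the opposite strand of the locus.

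Gfra1 (ENSMUSG00000025089, chromosome 19, 58235604 to 58455909, minus strand) encodes the co-receptor that presents GDNF to Ret. Its mesenchymal level was 50.4 CPM (48.8–52.0, 3912 UMIs) in the Uninjured library, 42.4 CPM (40.1–44.7, 1351 UMIs) at 1 dpi, 20.03 CPM (18.8–21.3, 1048 UMIs) at 3 dpi and 12.7 CPM (11.8–13.6, 816 UMIs) at 7 dpi. The order of the libraries was the same as for Ntf3, with successive differences of 1.19-fold (1.12–1.27), 2.12-fold (1.95–2.30) and 1.58-fold (1.44–1.74). Ret, the signalling kinase of the GDNF family, was at 89.7, 89.2, 43.3 and 10.4 CPM in the same cells. It was 2.06-fold lower at 3 than at 1 dpi and 4.17-fold lower at 7 than at 3 dpi (3.82–4.55). As background at 7 dpi, NK and T cells held Gfra1 at 0.863 CPM (2 UMIs). Neutrophils of that library held it at 13.3 CPM (3 UMIs), near the level of mesenchymal cells. Gm16277 is annotated on the strand opposite to Gfra1.

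Gfra2 (ENSMUSG00000022103, chromosome 14, 70890120 to 70979838, plus strand) encodes the co-receptor of neurturin. It stood at 6.59 CPM (6.03–7.18, 511 UMIs), 10.6 CPM (9.50–11.8, 338 UMIs), 19.1 CPM (18.0–20.4, 1002 UMIs) and 35.2 CPM (33.8–36.7, 2269 UMIs) in the Uninjured, 1, 3 and 7 dpi libraries. Each library was higher than the one before it, by 1.61-fold (1.40–1.85), 1.81-fold (1.59–2.05) and 1.84-fold (1.71–1.98), so that no successive difference reached 2-fold while 7 dpi was 5.35-fold above Uninjured (4.85–5.90). The share of cells with a Gfra2 UMI was 4.05%, 5.79%, 11.3% and 15.0%, and 0.560%, 0.827%, 1.20% and 3.35% after thinning, although median depth per mesenchymal cell was lower in each later library (9193, 8266, 6493 and 4330 UMIs). NK and T cells at 7 dpi had a Gfra2 UMI in 1.16% of cells, at 5.61 CPM.

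Ngfr and Ntrk3 were sparse in mesenchymal cells, and unrelated classes held some of each. Ngfr (ENSMUSG00000000120, chromosome 11, 95568818 to 95587735, minus strand) was at 2.29 (1.97–2.66), 1.16 (0.817–1.60), 0.726 (0.514–0.997) and 4.08 (3.60–4.60) CPM in mesenchymal cells, from 178, 37, 38 and 263 UMIs. At 1 dpi NK and T cells held Ngfr at 0.222 CPM (1 UMI), neutrophils at 0 (limit 0.962 CPM) and B cells at 2.17 CPM (10 UMIs). At 3 dpi NK and T cells held it at 0.864 CPM (4 UMIs) and B cells at 3.40 CPM (3 UMIs), so the 3 dpi mesenchymal level did not stand above these classes. The 7 dpi library was 5.62-fold above 3 dpi (3.99–8.12) and 1.78-fold above Uninjured (1.46–2.16). Its neutrophils held Ngfr at 53.1 CPM (12 UMIs) and its monocytes and macrophages at 4.05 CPM (6 UMIs). The 7 dpi mesenchymal level was thus below the former and near the latter. Ntrk3 (ENSMUSG00000059146, chromosome 7, 78175959 to 78738012, minus strand), which encodes TrkC, stood at 3.42 (3.02–3.85), 1.07 (0.739–1.49), 0.478 (0.309–0.705) and 0.667 (0.483–0.899) CPM. NK and T cells held Ntrk3 at 8.37, 5.32, 6.05 and 4.75 CPM, above mesenchymal cells in all 4 libraries. Gm39038 is annotated on the same strand within the Ntrk3 locus, and reads of these genes may not be told apart.

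By the fold rule, a gene counted as different when its CPM differed by at least 2-fold and it had at least 30 UMIs over both libraries. Between 1 dpi and Uninjured, 0 of 8 members passing the minimum were higher, against 8.53% of all 14507 genes passing it, and 2 (Bdnf and Ntrk3) were lower, against 5.16%. Between 3 and 1 dpi, 2 of 9 members were higher (Bdnf and Gdnf), against 7.17% of 14400 genes, and 3 were lower (Ntf3, Ntrk3 and Gfra1), against 6.11%. Between 7 and 3 dpi, 2 of 9 were higher (Bdnf and Ngfr), against 11.5% of 15275 genes, and 2 were lower (Ntf3 and Ntrk2), against 8.02%. The median log2 ratio of the members was −0.65, −0.62 and 0.48 in the 3 comparisons, beside 0.15, −0.07 and −0.07 for all genes. Successive comparisons share a library and are not independent. With each cell thinned to 1000 UMIs, 0 members were lower at 1 dpi, where Bdnf had no ratio and the Ntrk3 log2 ratio was −0.53 in place of −1.68.

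**Figure D3:**
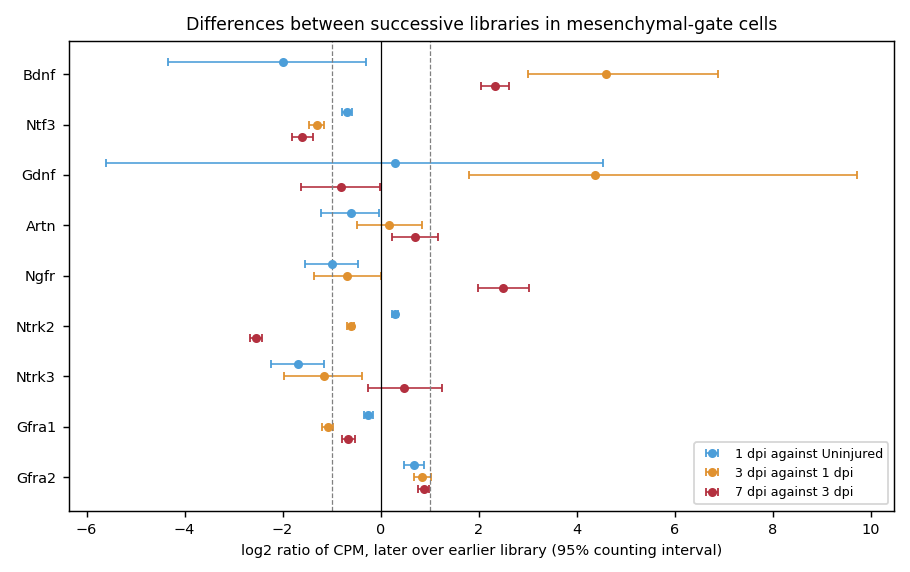
Log2 ratio of CPM in mesenchymal cells between successive libraries (x axis) for each gene (rows), with exact conditional binomial 95% intervals covering counting error only. Dashed lines mark a 2-fold difference. Ntf3 and Gfra1 lay below 0 in all 3 comparisons and Gfra2 above 0 in all 3.

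The promoter sequences of 4 genes that carry the mesenchymal time course, Bdnf, which was higher in the later libraries, and Ntf3, Ntrk2 and Gfra1, which were lower, are given so that their base composition can be compared. They run from 250 bases before to 50 bases after a RefSeq transcription start (GRCm38.p6), 5′ to 3′ on the strand of the gene. Capitals mark an AP-1 motif (TGANTCA) or a GC box (GGGCGG), searched on both strands, and a GC box can overlap the BMP response element below. The windows are chr2:109676782-109677081 (plus strand) for Bdnf, chr6:126166695-126166994 (minus strand) for Ntf3, chr13:58806319-58806618 (plus strand) for Ntrk2 and chr19:58455349-58455648 (minus strand) for Gfra1.
Bdnf: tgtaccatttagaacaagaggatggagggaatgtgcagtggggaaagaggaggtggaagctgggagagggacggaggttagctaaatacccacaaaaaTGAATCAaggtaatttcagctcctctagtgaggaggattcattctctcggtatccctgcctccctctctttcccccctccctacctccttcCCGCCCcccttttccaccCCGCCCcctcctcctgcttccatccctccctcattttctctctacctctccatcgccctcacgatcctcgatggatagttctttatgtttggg
Ntf3: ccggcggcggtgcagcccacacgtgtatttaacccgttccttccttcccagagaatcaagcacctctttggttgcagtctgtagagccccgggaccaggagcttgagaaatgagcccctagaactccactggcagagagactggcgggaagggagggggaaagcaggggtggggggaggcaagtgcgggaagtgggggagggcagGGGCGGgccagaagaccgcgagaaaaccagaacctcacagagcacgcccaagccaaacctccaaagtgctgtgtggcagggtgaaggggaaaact
Ntrk2: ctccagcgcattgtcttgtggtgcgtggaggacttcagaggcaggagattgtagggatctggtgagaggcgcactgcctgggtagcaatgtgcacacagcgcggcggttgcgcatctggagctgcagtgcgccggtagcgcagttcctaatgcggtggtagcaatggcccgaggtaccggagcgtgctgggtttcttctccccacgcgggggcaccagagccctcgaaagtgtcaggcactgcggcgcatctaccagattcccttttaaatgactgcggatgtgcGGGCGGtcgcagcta
Gfra1: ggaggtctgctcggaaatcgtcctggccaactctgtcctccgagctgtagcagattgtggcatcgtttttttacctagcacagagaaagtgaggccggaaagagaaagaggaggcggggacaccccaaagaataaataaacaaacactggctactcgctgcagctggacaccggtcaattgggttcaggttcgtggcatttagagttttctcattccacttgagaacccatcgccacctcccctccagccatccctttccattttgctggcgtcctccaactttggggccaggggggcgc
The Bdnf window was the one of 7 annotated Bdnf starts with an AP-1 motif, which 2565 of 32851 promoters (7.81%) held. A GC box stood in the Bdnf, Ntf3 and Ntrk2 windows and in 11714 of all promoters (35.7%), and none of the motifs searched stood in the Gfra1 window. The GC content of the windows shown was 53% in Bdnf, 61% in Ntf3, 61.3% in Ntrk2 and 54% in Gfra1, beside a median of 52.7% over all promoters. It depended on the start taken, since the 7 Bdnf windows ran from 38.7% to 58% and the other Ntf3 window had 55.7%. RefSeq promoters were matched for 7 of the 9 genes, with 15 starts in all. Of these, 1 Bdnf start held the BMP response element GGCGCC (11.9% of all promoters), 1 Gdnf start held TATAAA (13.6%) and none held the cAMP response element TGACGTCA (1.79%). These matches are descriptions of letters, and the UMI counts do not tell which start was used.

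The makeup of the mesenchymal cells differed between libraries along with these levels. Interstitial cells (at least 3 of Smoc2, Col15a1, Hsd11b1, Lpl and Abca8a) made up 54.1%, 59.9%, 48.0% and 9.71% of mesenchymal cells, and adventitial cells (at least 3 of Pi16, Dpp4, Cd55, Sema3c and Anxa3) 37.7%, 28.6%, 21.5% and 5.11%. Osteochondral progenitors (at least 4 of Lrrc15, Tnn, Postn, Cthrc1 and Aspn) were 3 and 8 cells in the Uninjured and 1 dpi libraries, 8.78% of mesenchymal cells at 3 dpi and 53.4% at 7 dpi. Levels within a subset are therefore given beside those of the class.

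Of the interstitial, adventitial and osteochondral progenitor subsets, interstitial cells held the highest Ntf3 and Gfra1 levels. Ntf3 was at 76.6 CPM (73.9–79.3), 42.4, 21.9 and 19.5 CPM (16.2–23.4) in interstitial cells of the Uninjured, 1, 3 and 7 dpi libraries, and at 7.41, 5.79, 3.43 and 3.58 CPM in adventitial cells. Within interstitial cells the 3 and 7 dpi libraries were near each other, whereas the class as a whole was 3.03-fold lower at 7 dpi. Gfra1 was at 83.4, 61.6, 33.7 and 31.8 CPM in interstitial cells and at 9.19, 8.08, 8.28 and 5.73 CPM in adventitial cells. Osteochondral progenitors held Ntf3 at 1.03 and 1.39 CPM and Gfra1 at 7.07 and 9.93 CPM at 3 and 7 dpi.

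Ntrk2 was present in both fibroblast subsets. Its interstitial level was 88.0, 118, 89.2 and 42.3 CPM and its adventitial level 65.1, 59.4, 65.3 and 17.4 CPM, so 7 dpi was lowest in each. Osteochondral progenitors held Ntrk2 at 9.94 CPM at 3 dpi and 4.31 CPM at 7 dpi. Ret was at 134, 121, 62.7 and 46.3 CPM in interstitial cells, at 36.0, 34.4, 39.5 and 31.3 CPM in adventitial cells, and at 23.2 and 3.15 CPM in osteochondral progenitors at 3 and 7 dpi.

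Bdnf and Gfra2 were higher at 7 dpi within interstitial cells too. Interstitial Bdnf was at 0.251, 0.0555, 3.13 and 12.1 CPM, and osteochondral progenitors held it at 1.33 CPM at 3 dpi and 12.3 CPM at 7 dpi. In adventitial cells it stayed at 0.520, 0, 0.856 and 1.19 CPM. Tenocytes, the fibroblasts of tendon, held 3, 1, 13 and 39 Bdnf UMIs in 56, 18, 67 and 215 cells, with 29.99 CPM (21.3–41.0) at 7 dpi. Gfra2 was at 9.54, 12.3, 13.3 and 29.2 CPM in interstitial cells, 2.89, 7.08, 17.3 and 27.0 CPM in adventitial cells, and 33.8 and 37.0 CPM in osteochondral progenitors at 3 and 7 dpi. Thus the adventitial Gfra2 level was higher in each later library in cells chosen by the same markers.

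Ngfr at 7 dpi was higher in interstitial cells than in the other main subsets. Interstitial Ngfr was at 3.94, 1.22, 0.915 and 17.4 CPM (14.2–21.0), while adventitial cells held it at 0.0325 (1 UMI), 0.1995, 0.285 and 3.82 CPM and osteochondral progenitors at 0.103 and 1.51 CPM at 3 and 7 dpi. The 7 dpi interstitial level lay above the 0.863 CPM of NK and T cells of that library but below the 53.1 CPM (12 UMIs) of its neutrophils. Endoneurial fibroblasts, the cells of connective tissue within nerves, were few (27, 13, 10 and 23 cells) and held 14, 12, 3 and 12 Ngfr UMIs, or 55.8, 114, 17.6 and 45.1 CPM. They held Gfra1 at 195, 219, 17.6 and 63.9 CPM, above interstitial cells except at 3 dpi, where tenocytes stood higher at 62.1 CPM. Uninjured endoneurial cells also held Ntrk2 at 243 CPM and Gfra2 at 67.8 CPM, above interstitial cells. Adventitial cells held more Ntrk3 than interstitial cells in the Uninjured library, at 6.63 against 1.05 CPM.

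**Figure D4:**
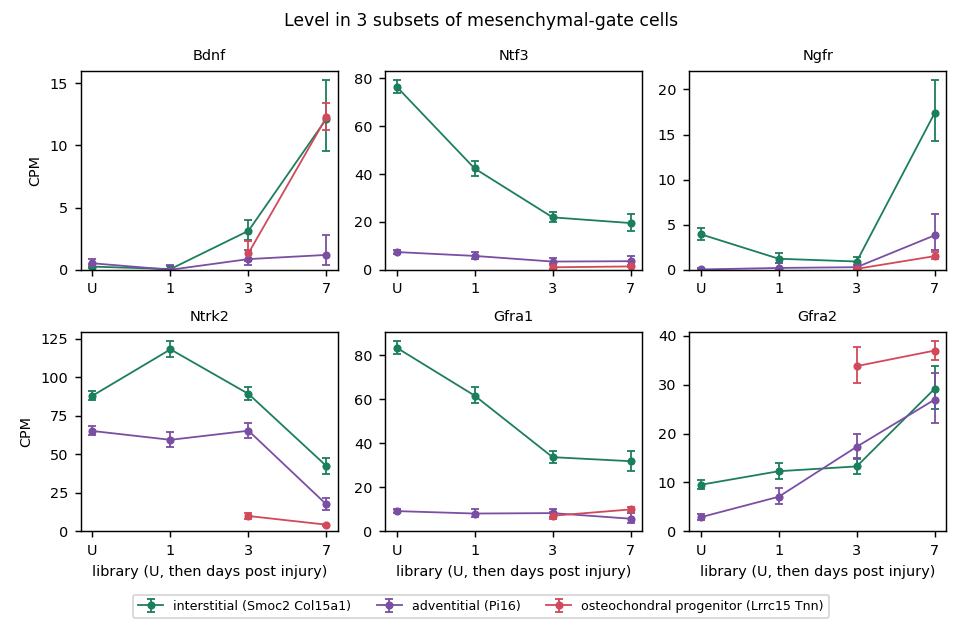
Level (CPM, linear axes from 0) of 6 genes in interstitial, adventitial and osteochondral progenitor subsets of mesenchymal cells by library, with exact Poisson 95% intervals and only subsets of at least 50 cells. Ntf3, Gfra1 and, at 7 dpi, Ngfr stood highest in interstitial cells, and Bdnf at 7 dpi was near 12 CPM in interstitial cells and osteochondral progenitors.

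At 7 dpi, 1938 mesenchymal cells also passed the chondrocyte gate of cartilage markers such as Acan. They held Bdnf at 8.86 CPM against 12.0 CPM in the other 8207 mesenchymal cells, Gfra2 at 22.7 against 37.9 CPM, Ntrk2 at 4.87 against 11.8 CPM Gfra1 at 8.06 against 13.6 CPM and Ngfr at 1.42 against 4.65 CPM. The 1331 cells of the chondrocyte class itself, which were seen at 7 dpi, held Bdnf at 5.25 CPM (28 UMIs), Gfra1 at 7.87 CPM (42 UMIs) and Gfra2 at 8.24 CPM (44 UMIs). Cartilage-gated cells were thus lower for these genes than the mesenchymal cells outside the chondrocyte gate. This split was chosen after the values were seen.

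A UMI of the kinase gene Ret was more frequent in cells with a UMI of its co-receptor gene Gfra1. In the Uninjured library 61.5% (59.5–63.5) of the 2298 mesenchymal cells with a Gfra1 UMI had a Ret UMI, against 34.3% (33.1–35.5) of the 5918 cells without, at median depths of 9294 and 9138.5 UMIs. Among interstitial cells of that library the shares were 65.9% of 1926 cells and 50.2% of 2517 cells, at median depths of 9127.5 and 8436 UMIs, and among adventitial cells 37.6% of 194 and 20.8% of 2901. At 7 dpi they were 9.46% (7.35–11.9) of 666 mesenchymal cells and 4.35% of 9479 cells, but cells with Gfra1 were deeper there (7900 against 4153 UMIs), so that difference and depth cannot be told apart. Of the 127 Uninjured cells with an Ngfr UMI, 66.9% (58.0–75.0) had a Gfra1 UMI, against 27.4% of the cells without Ngfr. Of those 127 cells 109 were interstitial, and among interstitial cells the shares were 67.0% and 42.8%. For the co-receptor gene Gfra2, 46.2% of Uninjured mesenchymal cells with its UMI had a Ret UMI, against 41.7% of those without. The Gfra2 shares were 52.4% and 57.2% in interstitial cells, and 40.8% and 21.4% in adventitial cells. Gfra1, which is not the receptor of Ntf3, had a UMI in 44.4% of Uninjured mesenchymal cells with Ntf3 and 21.9% of those without.

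The other genes of the pathway were taken from lists of ligands, receptors, adaptors and ligand-processing enzymes. Of 6 other ligands, 4 passed the minimum of UMIs in each comparison. Nrtn, which encodes neurturin, the ligand of Gfra2, was at 3.56, 0.784, 1.39 and 5.43 CPM in mesenchymal cells, 4.54-fold lower at 1 dpi than Uninjured and 3.89-fold higher at 7 than at 3 dpi (3.02–5.08). Uninjured tenocytes held 69 Nrtn UMIs in 56 cells (118 CPM), and osteochondral progenitors held it at 0.308 CPM at 3 dpi and 5.82 CPM at 7 dpi. The median log2 ratio of these ligands was −0.19, −0.36 and 0.43 in the 3 comparisons.

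Of 14 other receptors and co-receptors, 1 of 10 tested was higher and 2 were lower at 1 dpi, 2 of 8 were higher and 2 lower at 3 dpi, and 7 of 10 were higher and 1 lower at 7 dpi. Of all genes, 8.53% were higher and 5.16% lower at 1 dpi, 7.17% and 6.11% at 3 dpi, and 11.5% and 8.02% at 7 dpi. The median log2 ratio at 7 dpi was 1.17, beside −0.07 for all genes. Those higher at 7 dpi were Gfra4, Sort1, Sorcs1, Sorcs2, Ncam1, Sdc3 and Rtn4r, and the lower one was Ret. Ncam1, an adhesion molecule that also binds GDNF with Gfra1, was at 16.2, 11.8, 48.2 and 126 CPM. Sorcs2, a partner of Ngfr in binding pro-neurotrophins, was at 22.7, 20.4, 24.3 and 54.4 CPM, and Sdc3, a heparan sulfate proteoglycan that binds GDNF, at 12.5, 37.7, 27.1 and 70.8 CPM. Several of these proteins have many uses outside this pathway.

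Genes acting inside the cell were read against the same shares of all genes. Of 18 adaptors and effectors, 0 of 18 tested were higher and 1 (Shc3) lower at 1 dpi, 2 of 17 were higher (Sh2b2 and Dok5) and 1 lower (Frs3) at 3 dpi, and 2 of 17 were higher (Irs1 and Dok6) and 0 lower at 7 dpi, with median log2 ratios of 0.17, −0.10 and 0.19. These counts were near the shares of all genes that passed (8.53% higher and 5.16% lower at 1 dpi, 7.17% and 6.11% at 3 dpi, and 11.5% and 8.02% at 7 dpi). Of 10 ligand-processing genes, 8 were tested in each comparison. Mmp9 was higher at 1 dpi, Pcsk5 and Mmp9 were among the 3 higher and Pcsk6 was lower at 3 dpi, and Pcsk5, Pcsk6 and Mmp3 were lower at 7 dpi. Their median log2 ratios were 0.17, 0.09 and −0.50. Pcsk5 and Pcsk6 encode proprotein convertases, enzymes that cut secreted precursors. Mmp9 is also a marker of the neutrophil gate, which held 54, 481, 272 and 80 cells in the 4 libraries. Any part of neutrophil RNA in its mesenchymal values was not tested.

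In Schwann cells, Ngfr was counted in the Uninjured and 7 dpi libraries and not in the other pair. The gate held 223, 168, 135 and 144 cells, and the level of Sox10, the transcription factor that defines the glial lineage, was 490, 467, 630 and 401 CPM. Ngfr was at 17.1 CPM (9.32–28.6, 14 UMIs) in Uninjured cells, 0 at 1 dpi (limit 4.004 CPM), 0 at 3 dpi (limit 8.91 CPM) and 106 CPM (78.1–140, 49 UMIs) at 7 dpi. Against a floor of 3 counts in the library at 0, it was at least 4.26-fold lower at 1 dpi than Uninjured and at least 11.9-fold higher at 7 than at 3 dpi. The 49 UMIs stood in 17 of 144 cells, 11.8% of them, and in 2.84% after thinning.

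In the Uninjured library the Schwann cells with Ngfr differed from the rest in other genes. There 9 cells had an Ngfr UMI and held Scn7a, a sodium channel gene of non-myelinating glia, at 1527 CPM, against 121 CPM in the 214 others. Ntrk3 was at 232 CPM (93.4–479, 7 UMIs in 4 cells) in those 9 cells, against 6.32 CPM (5 UMIs) in the others. The 17 cells with an Ngfr UMI at 7 dpi were deeper than the 127 others, with 133316 UMIs in all against 330567. Scn7a had 142, 27, 4 and 42 UMIs in the Schwann class of the 4 libraries, and Gap43, a growth-associated protein gene, had 0, 0, 0 and 142 UMIs. The mix of glial states in the gate may differ between libraries, and its part in the Ngfr values was not tested. Gfra3, the artemin co-receptor, had 9, 0, 0 and 44 UMIs. The summed level of the 10 myelin genes was 53044, 39381, 31633 and 35018 CPM. A list of 10 injury Schwann cell genes, Gap43 among them, summed to 11088, 8940, 10230.5 and 7442 CPM and was lowest at 7 dpi, unlike Gap43 itself. These splits by Ngfr were chosen after the values were seen.

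Schwann cells held Ntrk2, Gfra1 and Gfra2 in every library, whereas Ntrk3 had 12, 1, 0 and 5 UMIs. Ntrk2 was at 104, 151, 172 and 81.9 CPM from 85, 113, 58 and 38 UMIs, with 1 dpi 1.46-fold above Uninjured (1.09–1.95) and 7 dpi 2.10-fold below 3 dpi (1.37–3.25). Gfra1 was at 70.7, 116, 98.0 and 79.8 CPM from 58, 87, 33 and 37 UMIs, and was 1.64-fold higher at 1 dpi than Uninjured (1.17–2.33). Gfra2 was at 32.9, 45.4, 44.6 and 77.6 CPM from 27, 34, 15 and 36 UMIs, and its difference between 7 and 3 dpi, 1.74-fold, had an interval of 0.930 to 3.42. Among ligands, Ntf3 had 0 to 3 UMIs per library in these cells. Bdnf, Gdnf and Artn each had 0 UMIs in the Uninjured, 1 and 3 dpi libraries and 1, 1 and 3 UMIs at 7 dpi. Cntf, which encodes ciliary neurotrophic factor, a cytokine outside both families, was at 308, 339, 250 and 155 CPM. The summed level of the 8 mesenchymal gate markers in the Schwann class was 1307, 815, 1010 and 3436 CPM, beside 23976 to 39314 CPM in mesenchymal cells.

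In muscle cells, gated by satellite cell and myoblast markers such as Pax7 and Myod1, Gdnf was a 3 dpi signal. It had 0, 1, 69 and 0 UMIs in 170, 66, 274 and 180 cells, or 17.2 CPM (13.4–21.7) at 3 dpi, and was at least 5.87-fold lower at 7 dpi. The 69 UMIs stood in 44 cells with at most 4 in a cell. Of them 20 were in 84 cells with Myog, the factor of differentiating myoblasts, 25 in 136 cells with Pax7 and no Myog, and 24 in 54 cells with neither, a split chosen after the values were seen. Ntf3 was low at 3 dpi in the same cells, with 43, 5, 2 and 19 UMIs or 31.8, 13.2, 0.497 and 18.5 CPM, and 42 of the 43 Uninjured UMIs were in cells with Pax7 and no Myog.

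Receptors in muscle cells differed between libraries as well. Gfra1 was at 28.8, 60.8, 7.46 and 26.3 CPM from 39, 23, 30 and 27 UMIs, 8.15-fold lower at 3 than at 1 dpi (4.52–14.5) and 3.53-fold higher at 7 than at 3 dpi (2.02–6.14). The level of Ngfr was 14.8, 5.29, 15.9 and 22.4 CPM from 20, 2, 64 and 23 UMIs. Bdnf had 20, 0, 16 and 19 UMIs, or 14.8, 0, 3.98 and 18.5 CPM. The Gfra1 and Gdnf levels were thus lowest and highest in the same 3 dpi library.

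Mural cells held Ntrk3, Ntf3 and Ntrk2 in every library, although the 1 and 3 dpi libraries had 17 and 16 such cells. Ntrk3 was at 38.8 CPM (39 UMIs) in the Uninjured library and 17.4 CPM (43 UMIs) at 7 dpi. At 1 and 3 dpi it had 15 and 10 UMIs among only 169865 and 97202 UMIs of all genes, against 1005752 (Uninjured) and 2471668 (7 dpi). Its level was thus higher at 1 and 3 dpi, on those few cells. Ntf3 was at 98.4 CPM (99 UMIs) and 19.0 CPM (47 UMIs), and Ntrk2 at 154 and 56.2 CPM, in the Uninjured and 7 dpi libraries. Both genes were thus lower at 7 dpi than Uninjured, as they were in mesenchymal cells. Bdnf had 12, 0, 0 and 64 UMIs, or 25.9 CPM at 7 dpi, and Ngfr had 64 UMIs at 7 dpi and none in the other 3 libraries. The mesenchymal gate markers summed to 524 CPM in Uninjured and 7697 CPM in 7 dpi mural cells, and their part in these differences was not tested.

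**Figure D5:**
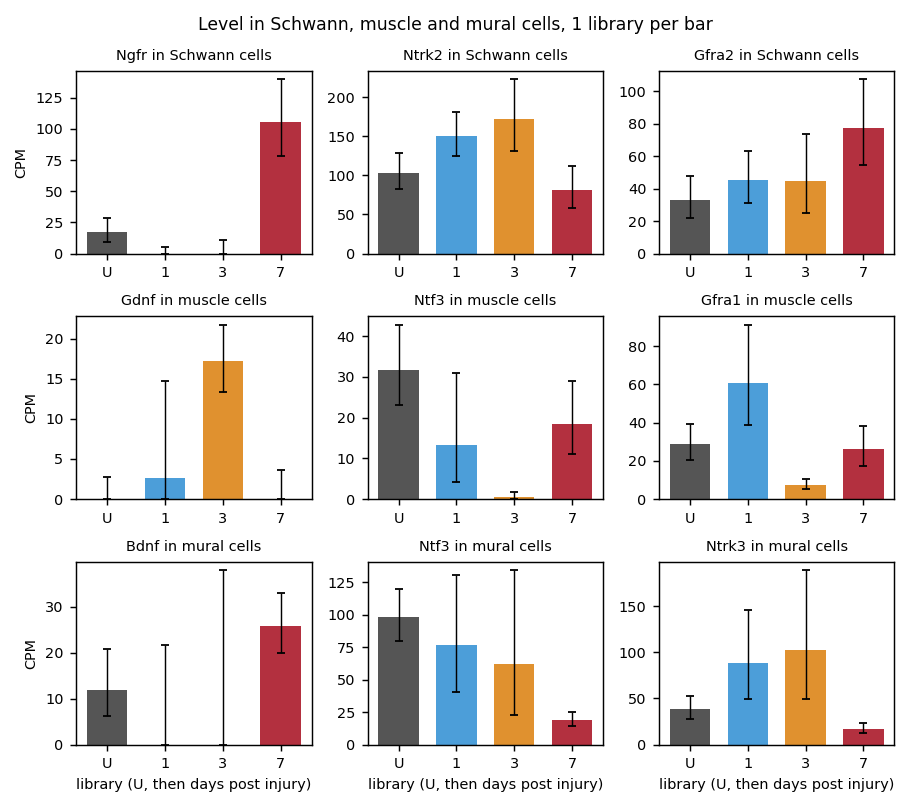
Level (CPM, linear axes from 0, a separate scale per panel) of selected genes in Schwann, muscle and mural cells by library, 1 library per bar with its exact Poisson 95% interval. Ngfr in Schwann cells was 0 at 1 and 3 dpi and 106 CPM at 7 dpi, and Gdnf in muscle cells stood at 17.2 CPM at 3 dpi. The 1 and 3 dpi mural bars rest on 17 and 16 cells.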

How the data were processed

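Single-cell RNA was measured in 4 libraries of tibial muscle, 1 per time point. The authors mapped reads with STAR in Cell Ranger 5.0.0 and deposited counts of UMIs per gene and cell. The submitters' processing notes name mm10 and Seurat 3.1.1. Reads were down-sampled across libraries where required, per the labels, but whether the matrices come from before or after that step is not given in the sources used here. The files held 11722 to 23752 barcodes and 91146335 to 129007669 UMIs per library.

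Cells beyond 2 SD of log10 UMIs or genes or above 10% mitochondrial UMIs were removed, as was the top 7.5% of each library by Scrublet score (scanpy 1.11.5). A cell joined the class with the largest share of its markers among the gates it passed, and ties were left unassigned; 1099 (Uninjured) to 4385 (7 dpi) cells of all classes held exactly the minimum. UMIs were summed per class and library, with exact Poisson intervals for levels, conditional binomial intervals for ratios and Clopper-Pearson intervals for shares, all at 95% (scipy 1.17.1). Zeros were given a limit of 3 counts. The comparison code was tested on simulated data. B cells had been planned as the class lacking these genes, but hold Gfra1 and Gfra2, so neutrophils and NK and T cells were used as well. Gene positions came from GENCODE annotation of GRCm38, matching 32158 of 32285 IDs. Genes named were the 9 members, the genes of the lists, the gate markers and the 3 genes most alike to each member. The members and lists were chosen with earlier results of these data known. Results for 3 genes of the lists are not reported here.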

Additional observations from a re-analysis of the deposited data

Results flagged for a closer look

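In 8 cases the log2 ratio of a gene between successive libraries had opposite signs in mesenchymal cells and another class. Both counting intervals were clear of 0 in each case, and pairs of other classes were not compared. None of these differences was tested, since each class had 1 library per time point. Ntf3 between 7 and 3 dpi was −1.60 in mesenchymal and 5.22 in muscle cells (19 against 2 UMIs), a difference of −6.82. For Gfra1 between 1 dpi and Uninjured, mesenchymal cells were at −0.25, Schwann cells at 0.72 and muscle cells at 1.08, differences of −0.97 and −1.33. Between 3 and 1 dpi, Gfra1 was at −1.08 in mesenchymal and 1.02 in B cells, a difference of −2.10, and between 7 and 3 dpi at −0.66 in mesenchymal and 1.82 in muscle cells, a difference of −2.48. Gfra2 between 1 dpi and Uninjured was at 0.69 in mesenchymal cells, −3.87 in monocytes and macrophages and −2.60 in dendritic cells, differences of 4.56 and 3.29. Gdnf between 7 and 3 dpi was at −0.80 in mesenchymal and 3.66 in neutrophils, a difference of −4.47, and the neutrophil value rests on 3 UMIs of 1 cell against 1 UMI.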

How the results depend on the processing

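Of 11 mesenchymal log2 ratios of at least 2-fold, 106 of 106 values under the alternatives had the same direction and 99 were still at least 2-fold. Thinning each cell to 1000 UMIs left 0 members lower at 1 dpi in place of 2, 0 higher and 1 lower at 3 dpi in place of 2 and 3, and 4 higher at 7 dpi in place of 2. With thinning, Bdnf and Gdnf had no ratio between 1 dpi and Uninjured or between 3 and 1 dpi. Gates from the marker genes the study names, and all deposited barcodes without a filter, each gave 1 member (Gfra2) higher at 1 dpi in place of 0. Gates with 1 marker more, cells passing a single gate and SD limits on linear counts each gave 1 (Bdnf) higher at 3 dpi in place of 2, and with 1 marker more Gdnf had no ratio there. With levels averaged over cells, Ntf3 and Gfra1 were not among the 2 members lower at 3 dpi (Ngfr and Ntrk3). Among smaller ratios the range reached across 0 for Artn, Gdnf and Ngfr at 1 dpi (−0.63 to 0.06, −0.42 to 1.38 and −1.12 to 0.20), Artn at 3 dpi (−1.67 to 0.41) and Gdnf and Ntrk3 at 7 dpi (−1.32 to 0.67 and −0.02 to 0.63). Leaving the chondrocyte-gated cells out of the mesenchymal class, an alternative chosen after seeing the data, moved none of the 6 counts. No paired analysis was possible because each group had 1 library. With 1 to 34 Gdnf UMIs per library, smaller differences of this gene were not detectable at this depth.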

Other observations

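Immune classes held some of the receptors. B cells held Gfra1 at 12.6, 24.1, 48.8 and 24.2 CPM from 7, 111, 43 and 9 UMIs in the Uninjured, 1, 3 and 7 dpi libraries. At 1 dpi 91 of the 111 UMIs were in 152 cells with UMIs of B cell progenitor genes (119 CPM) and 20 in the other 1188 cells (5.20 CPM). Gfra2 had 44 UMIs in those 152 cells and 4 in the others. Monocytes and macrophages held Gfra2 at 16.8, 1.15, 2.74 and 12.1 CPM from 46, 16, 14 and 18 UMIs, and 16 of the Uninjured UMIs were in 49 cells with Cd163, a resident macrophage marker (27.5 CPM against 13.9 CPM in the 254 others). In dendritic cells at 3 dpi, 36 of 37 Ngfr UMIs were in 194 cells with a UMI of Cd209a, a lectin gene of conventional dendritic cells. These splits were chosen after the values were seen.

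Over 39 class-by-library points of at least 50 cells, which share libraries and depth, the genes whose log2(CPM + 1) followed each member most closely among 15444 genes were listed by Pearson correlation, as a description. Ntf3 was followed by Ntn4 (0.87), Gnao1 (0.80) and Pygm (0.80). Ntrk2 was followed by Fgf1, Pde1a and Prss23 (0.87 each), and Gfra1 by Arhgap24 (0.81), Scd1 (0.81) and Slc22a17 (0.79). Bdnf was followed by Fam162a (0.82), Acta2 (0.81) and Ptges3l (0.78), and Gfra2 by Rassf8 (0.74), Nrn1 (0.73) and Col27a1 (0.73). The closest genes of Artn, Ntrk3, Gdnf and Ngfr were Mrgprf (0.78), Stum (0.74), Hoxc13 (0.73) and Zmat2 (0.66).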
